A study of Mus musculus with 12 samples.

Results

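Genes of the lysosome and of its proton pump were followed across 12 RNA-seq libraries of MMTV-NIC cells: cathepsins and other lysosomal peptidases, glycosidases, lipid and sterol handling proteins, membrane proteins, regulators, and subunits of the vacuolar H+-ATPase (V-ATPase). The set holds 36 genes chosen by symbol, and each matched 1 gene among the 54232 of the count files. MMTV-NIC cells are mouse breast cancer cells from a model in which the mammary tumour virus promoter drives an activated Neu (ErbB2) receptor together with Cre. Both genotypes share that background. The groups were AXL KO cells in 1% oxygen (hypoxia), AXL KO cells in 21% oxygen (normoxia), AXL WT cells in 1% oxygen and AXL WT cells in 21% oxygen, with 3 libraries each. AXL is a TAM family receptor with tyrosine kinase activity. The time in hypoxia, the count of knockout clones and the source of each replicate are not given in the labels, so a difference between clones and one between genotypes cannot be told apart. P-values are read against the scatter of these samples only, and that scatter may be technical.

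Lysosomes are acidic organelles that break down material delivered by endocytosis and autophagy. The V-ATPase pumps protons into them: its membrane-embedded V0 sector forms the proton path and its cytosolic V1 sector hydrolyses ATP. Cathepsins and other hydrolases work at that low pH, the related transcription factors TFEB and TFE3 activate many of the genes when they are in the nucleus, and in tumours cathepsins can also be secreted and act on the matrix.

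Libraries held 45297267 to 58775422 gene counts. Axl, the targeted gene, stood at 2.09, 2.35 and 1.72 CPM (gene counts scaled to library size with TMM factors) in AXL KO hypoxia and at 510, 455 and 592 CPM in AXL WT hypoxia. The normoxia values were 2.93, 3.26 and 3.47 CPM in AXL KO and 911, 892 and 1000.2 CPM in AXL WT, so the Axl levels match the titles. The AXL WT hypoxia libraries differed from each other more than those of other groups did: their biological coefficient of variation was 0.4, against 0.0566 to 0.0895 elsewhere. Within that group library 1 stood apart from libraries 2 and 3, so results that rest on this are also given without library 1, and with libraries 2 and 3 left out. In the second case 1 library stands for the group and is assumed to vary like the other groups, so those values are given without an error or a test, and counts of calls under that setting rest on the same assumption. Markers of tumour epithelium summed to 2377 to 2473 CPM in AXL KO hypoxia, 2238 to 2542 CPM in AXL KO normoxia, 1048 to 4746 CPM in AXL WT hypoxia and 3741 to 3835.5 CPM in AXL WT normoxia. Fibroblast markers summed to 19.4 to 23.1, 167 to 181, 56.8 to 82.9 and 65.3 to 71.9 CPM in the same order of groups, and endothelial markers to 16.1 to 17.9, 3.28 to 4.68, 0.905 to 2.72 and 0.391 to 0.758 CPM. Such sums can hide single markers that differ in direction, as in hypoxia between the genotypes, by the calls defined below. Of the endothelial markers Kdr was higher in AXL KO, Pecam1 and Cdh5 were lower, and Vwf and Emcn were not called. Among the fibroblast markers Dcn was higher and Pdgfra and Pdgfrb were lower. For the epithelium Epcam and Cdh1 were lower, and Erbb2, Krt8, Krt18 and Krt7 were not called. The part of these cell types in the results was not tested. In bulk RNA, fewer cells of a type and less RNA per cell cannot be told apart.

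Of the 36 genes 34 had enough counts to be tested, Atp6v0d2 only through AXL KO normoxia, the group where it is high. Cathepsin F (Ctsf) had 25 counts in all 12 libraries together and cathepsin S (Ctss), a protease of antigen-presenting cells, had 8, and neither was tested. Each 2-group comparison and the difference between the genotypes' responses to oxygen was fitted with edgeR across all 16767 genes tested, and a call needed an adjusted p (Benjamini-Hochberg) under 0.05. Below, ± after a CPM value is the standard deviation of 3 libraries, and ± after a log2 fold change is its standard error. The fit shares its estimate of spread over all 12 libraries, so errors and p-values do not reflect only the groups compared. They may be too small where AXL WT hypoxia is compared and too large elsewhere. With only the libraries compared, 7696 of 15216 genes were called between genotypes in hypoxia and 12610 of 15866 in normoxia. The shared fit called 10557 and 10009 of 16767.

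The 36 genes took 1.51%, 1.58% and 1.6% of all gene counts in the AXL KO hypoxia libraries and 0.836%, 0.778% and 0.774% in those of AXL WT hypoxia. In 21% oxygen the shares were 1.26%, 1.36% and 1.39% for AXL KO, against 0.957%, 0.989% and 0.953% for AXL WT. At both oxygen levels each AXL KO library therefore lay above each AXL WT library. Summed CPM came to 18081 ± 481 in AXL KO hypoxia, 13402 ± 837 in AXL KO normoxia, 8226 ± 692 in AXL WT hypoxia and 8109 ± 237 in AXL WT normoxia. In AXL WT the share of counts was lower in hypoxia than in normoxia. The TMM-scaled sums of AXL WT differed by less than the spread between libraries and gave no direction. Cathepsin D (Ctsd) alone made up 24.5% of the members' counts in AXL KO hypoxia, 13.9% in AXL KO normoxia, 11.1% in AXL WT hypoxia and 8.98% in AXL WT normoxia. Without it the sums were 13651 ± 231, 11539 ± 579, 7311 ± 545 and 7381 ± 202 CPM in the same order of groups.

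**Figure D1:**
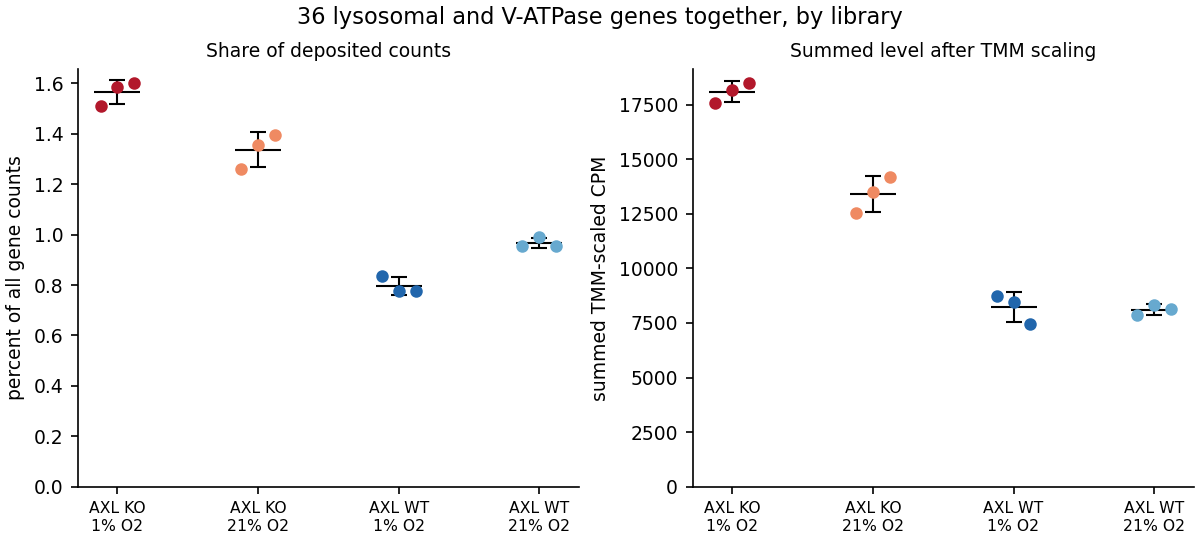
Members together, by library. Points are the 3 libraries of each group, bars the mean and standard deviation. The left axis is the 36 genes' share of all gene counts in percent and the right axis their summed TMM-scaled CPM. AXL KO hypoxia is highest on both, and AXL WT hypoxia is below AXL WT normoxia on the left (0.774% to 0.836% against 0.953% to 0.989%) and not on the right.

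Levels of different genes are compared per kilobase of exon. In AXL KO hypoxia Ctsd led with 1884 CPM per kilobase, followed by prosaposin (Psap, the precursor of the saposins that help degrade sphingolipids) with 848, the membrane glycoprotein Lamp1 with 490, cathepsin B (Ctsb) with 352 and progranulin (Grn) with 270.2 CPM per kilobase. In AXL WT normoxia the order began with Lamp1 at 424, Ctsd at 309.9, the autophagy receptor Sqstm1 at 279, Psap at 269 and Grn at 219 CPM per kilobase. Those 5 were also the highest in AXL WT hypoxia, where Lamp1 had 427 and Ctsd 389 CPM per kilobase. Near the low end of the tested genes were Dpp7 in AXL KO cells, Ctsz in AXL WT cells, cathepsin K (Ctsk), a collagenase of osteoclasts, and the V0 subunit Atp6v0d2, an isoform known from osteoclasts. Ctsk had 0.64 CPM per kilobase in AXL KO hypoxia, 0.107 in AXL KO normoxia, 2.92 in AXL WT hypoxia and 0.0840 in AXL WT normoxia.

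Many lysosomal promoters carry an E-box with flanking bases that TFEB and TFE3 can bind, and its letters are shown as a description. RefSeq promoters (GRCm38.p6, 250 bases before to 50 bases after the start) were at hand for 29 of the 36 genes. The 8-letter motif GTCACGTG, or its other strand CACGTGAC, occurred in the promoters of 8 of them, which is 27.6% (95% exact Clopper-Pearson interval 12.7% to 47.2%), against 2.55% of all 27025 genes in the table. The 6-letter core CACGTG, which lies inside both, occurred in 44.8% of member genes and 8.09% of all genes. The palindrome TCACGTGA, which overlaps both by 7 letters, occurred in 24.1% and 1.12%. Since the motif is known from lysosomal promoters, its higher share among members was largely set by the choice of genes. That share is therefore no result about these libraries. A match is a description of letters and shows no binding, and a part of TFEB or TFE3 in the levels was not tested. In the 30-base stretches below, 1 for each of the 8 genes, the motif is in capitals.
Ctsd (chr7:142387907-142387936, minus strand): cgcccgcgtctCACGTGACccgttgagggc
Ctsa (chr2:164833748-164833777, plus strand): atgagcaaactGTCACGTGatgcagatgct
Lgmn (chr12:102439125-102439154, minus strand): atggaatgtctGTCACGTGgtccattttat
Gla (chrX:134601183-134601212, minus strand): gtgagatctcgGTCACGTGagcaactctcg
Glb1 (chr9:114401017-114401046, plus strand): gctgcttctgaGTCACGTGgcctacagagg
Lamp1 (chr8:13159122-13159151, plus strand): atgccgactggCACGTGACcacatcacgtg
Mcoln1 (chr8:3500435-3500464, plus strand): gggtcgcgcttGTCACGTGttcagttcagg
Atp6v0d1 (chr8:105566051-105566080, minus strand): gccctactgcgGTCACGTGagacgcggtgc
Ctsa and Mcoln1 hold a second copy, and so does Ctsd. The whole Ctsd promoter on chr7:142387778-142388077 (GRCm38.p6, minus strand), upstream of the member with the highest level per kilobase in AXL KO hypoxia, is printed with both copies in capitals.
Ctsd promoter: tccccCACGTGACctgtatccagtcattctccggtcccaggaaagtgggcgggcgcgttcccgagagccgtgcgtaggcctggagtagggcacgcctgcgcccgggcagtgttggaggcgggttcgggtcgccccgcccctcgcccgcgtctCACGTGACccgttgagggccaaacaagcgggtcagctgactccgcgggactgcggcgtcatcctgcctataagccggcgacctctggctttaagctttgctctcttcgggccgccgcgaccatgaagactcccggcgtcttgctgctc
In hypoxia 6 of the 8 genes with the motif were higher in AXL KO than in AXL WT and 0 lower, against 13 higher and 3 lower of 19 tested genes whose promoters lack it. In normoxia 5 of 8 with the motif were higher (median 0.3) and 13 of 19 without it (median 0.72). For the difference between the genotypes' responses to oxygen, 5 of 8 and 6 of 19 were higher. Over all genes 29.9%, 29.7% and 13.5% were higher in these comparisons. The picture thus depended on the comparison, and no test between members with and without the motif was made.

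The first comparison set the genotypes side by side in 1% oxygen. In hypoxia 21 of the 34 tested genes were higher in AXL KO, 6 were lower and 7 were not called. Over all genes tested 63% were called, 29.9% higher and 33% lower, so the share of members called lower was below and that of members called higher above the background. The members' median log2 fold change was 0.62, against −0.041 for all genes. Without AXL WT hypoxia library 1, 21 were higher and 7 lower, and with libraries 2 and 3 left out 22 were higher and 4 lower.

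In normoxia 22 were higher in AXL KO, 3 lower and 9 not called, with a median of 0.52, against −0.03 for all genes, of which 59.7% were called, 29.7% higher and 30% lower. The hypoxia and normoxia comparisons share no library, but they share the fit and the same AXL KO and AXL WT cells. A difference between clones would enter both, so neither replicates the other independently. Of the 34 genes 16 were higher in AXL KO at both oxygen levels, 2 (Dpp7 and Atp6v1c1) were lower at both, and 2 (Ctsh and Atp6v0a1) were lower in hypoxia and higher in normoxia. Among the 16, some calls depended on scaling, filter, test or libraries kept. The normoxia call of Ctsa was made under 11 of 22 such alternatives and that of Lgmn under 17, and the hypoxia call of Tfeb under 15. Scaled by library size alone, the median of all genes moved to −0.208 in hypoxia and −0.285 in normoxia, and 18 members were higher and 7 lower in hypoxia and 15 higher and 7 lower in normoxia. With that scaling the share of all calls that were higher was 39.2% in hypoxia and 35.8% in normoxia, against 47.5% and 49.7% with TMM.

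**Figure D2:**
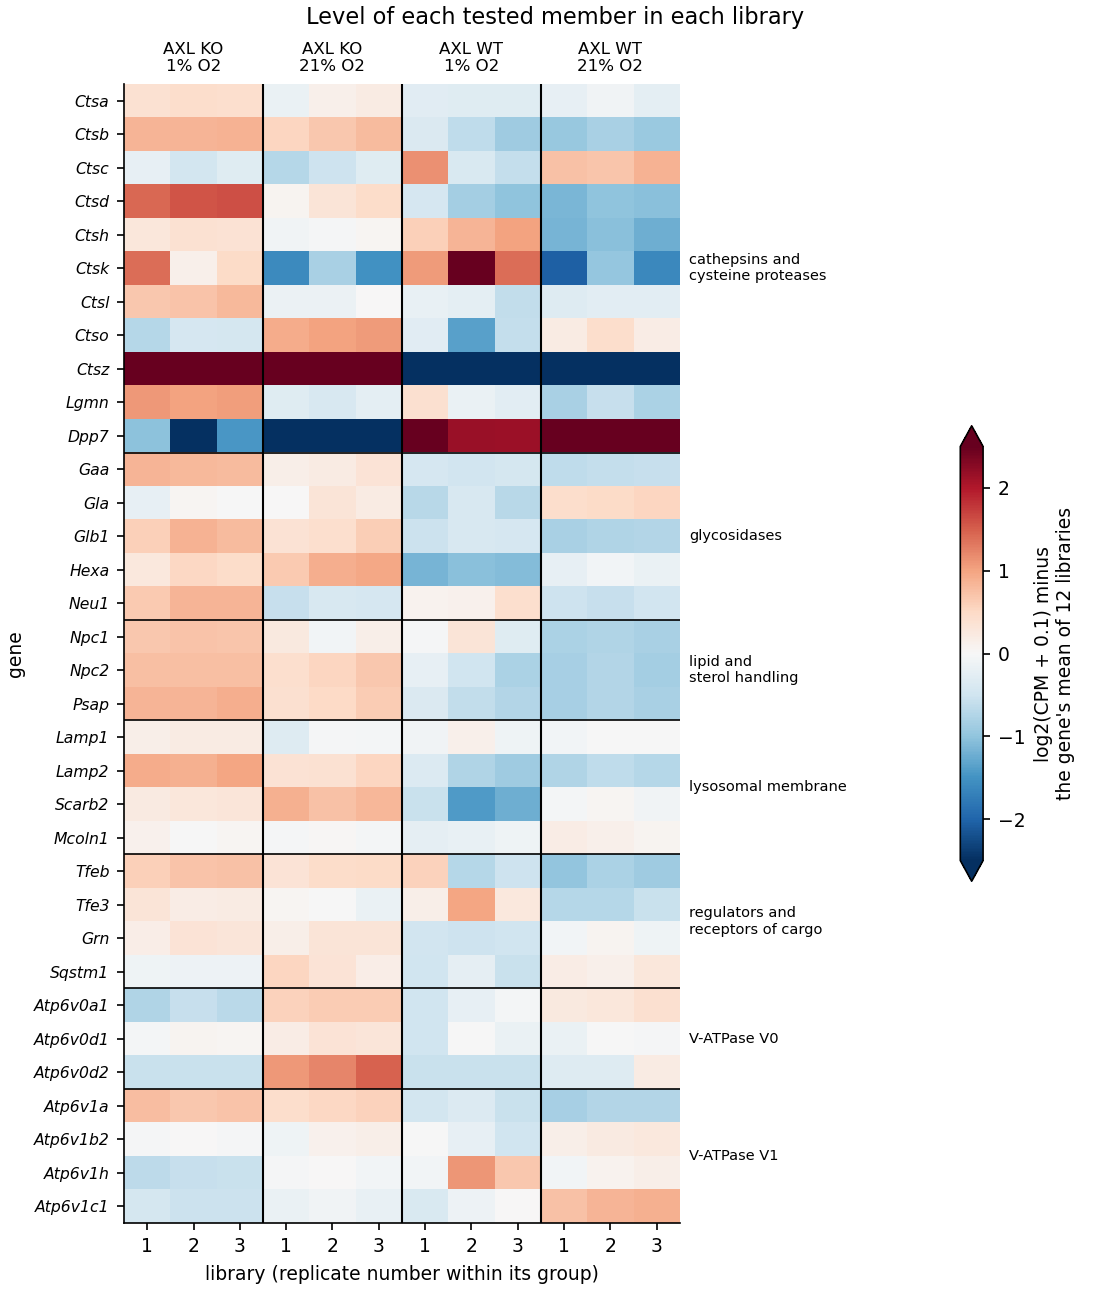
Level of the 34 tested genes in each library, grouped by role. Colour is log2(CPM + 0.1) minus the gene's mean over the 12 libraries and saturates at 2.5 in either direction. Ctsz is dark red in all 6 AXL KO libraries and dark blue in all 6 AXL WT libraries, Dpp7 runs the other way, and in AXL WT hypoxia libraries 1, 2 and 3 differ for Ctsc, Ctsk, Tfeb and Atp6v1h.

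Among the cathepsins and other peptidases, 6 of 11 tested (54.5%) were higher in AXL KO in hypoxia (Ctsa, Ctsb, Ctsd, Ctsl, Ctsz and Lgmn). Another 3 (27.3%) were lower (Ctsh, Ctsk and Dpp7). Over all genes 29.9% were higher and 33% lower, so the share of peptidases called lower was near the background. Ctsd, the main lysosomal aspartic protease, lies at chromosome 7, 142375911 to 142388038 (GRCm38). It had 4140, 4523 and 4628 CPM in AXL KO hypoxia, against 1136, 847 and 761 CPM in AXL WT hypoxia. Its normoxia levels were 1591, 1894 and 2106 CPM in AXL KO, against 692, 761 and 733 CPM in AXL WT. The groups did not overlap at either oxygen level, and the difference was 2.28 ± 0.15 on the log2 scale in hypoxia (adjusted p = 1.84e-07) and 1.35 ± 0.15 in normoxia (adjusted p = 8.35e-06). The hypoxia value was 2.47 ± 0.12 without AXL WT hypoxia library 1 and 1.96 with libraries 2 and 3 left out.

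Cathepsin Z (Ctsz), a carboxypeptidase also called cathepsin X, was read in AXL KO cells and almost not at all in AXL WT cells. It lies at chromosome 2, 174427493 to 174439039. It had 168, 176 and 176 CPM in AXL KO hypoxia, against 0, 0 and 0.0415 CPM in AXL WT hypoxia, which is 22739 counts against 2. The ratio of the summed counts, scaled by library, was 11782 (95% counting interval 3261 to 97293, counting error only). At 21% oxygen it stood at 95.1, 109 and 110.5 CPM in AXL KO, against 0 counts in all 3 AXL WT libraries, so it was at least 5870.5-fold higher, with a floor of 3 counts over the AXL WT group. Edges of Ctsz and of Nelfcd on the opposite strand overlap. Nelfcd, looked at after its values were seen, was lower in AXL KO, with 30.2 ± 2.86 CPM in AXL KO hypoxia and 47.7 ± 3.32 CPM in AXL WT hypoxia.

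Dpp7 (chromosome 2, 25352276 to 25356359), a dipeptidyl peptidase of vesicles and lysosomes, ran the other way. It had 1.24, 0.314 and 0.902 CPM in AXL KO hypoxia, against 16.4, 12.1 and 11.9 CPM in AXL WT hypoxia. In 21% oxygen it had 0.0893, 0.069 and 0.0694 CPM in AXL KO, against 30.1, 29.5 and 27.1 CPM in AXL WT. AXL KO libraries were the lower ones without overlap, by a log2 fold change of −4.05 ± 0.34 in hypoxia (adjusted p = 1.27e-06) and −8.53 ± 0.45 in normoxia (adjusted p = 2.1e-08).

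Ctsb, an abundant cysteine protease, had 2111, 2119.8 and 2152 CPM in AXL KO hypoxia, against 918, 759.98 and 638 CPM in AXL WT hypoxia. Its normoxia levels were 1703, 1883 and 2032 CPM in AXL KO, against 612, 675 and 619.95 CPM in AXL WT. It was higher in AXL KO at both oxygen levels without overlap, by 1.46 ± 0.12 in hypoxia (adjusted p = 1.36e-06) and 1.56 ± 0.12 in normoxia (adjusted p = 6.49e-07). Fdft1, which overlaps Ctsb on the opposite strand and was looked at after its values were seen, was higher in AXL KO too, by 0.86 ± 0.09 in hypoxia and 1.1 ± 0.09 in normoxia. Cathepsin L (Ctsl), an endopeptidase of the same family, had 1270.2, 1308 and 1399 CPM in AXL KO hypoxia, against 698, 677 and 518 CPM in AXL WT hypoxia, a difference of 1.07 ± 0.11 (adjusted p = 7.37e-06). In normoxia Ctsl had 716, 723 and 803 CPM in AXL KO and 638, 665 and 664 CPM in AXL WT, and the difference of 0.19 ± 0.11 was not called (adjusted p = 0.162). Legumain (Lgmn), the asparaginyl endopeptidase that trims cathepsins, was higher in AXL KO by 1.03 ± 0.15 in hypoxia and 0.41 ± 0.15 in normoxia (adjusted p = 0.000107 and 0.0322). The normoxia call of Lgmn was not made under 5 of 22 alternatives.

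Cathepsin H (Ctsh), an aminopeptidase, changed sides with oxygen. It had 153, 165 and 162 CPM in AXL KO hypoxia, against 191, 229 and 255 CPM in AXL WT hypoxia. In normoxia it had 119, 124 and 131 CPM in AXL KO, against 56.3, 61.3 and 54.3 CPM in AXL WT. It was lower in AXL KO in hypoxia by −0.49 ± 0.11 (adjusted p = 0.00175) and higher in normoxia by 1.12 ± 0.11 (adjusted p = 2.93e-06), with no overlap in either.

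Cathepsin C (Ctsc), which activates serine proteases of leukocytes, rested on single libraries in AXL WT hypoxia. It had 9.34, 7.75 and 8.67 CPM in AXL KO hypoxia and 23.9, 8.18 and 7.1 CPM in AXL WT hypoxia, which overlap. Its difference of −0.61 ± 0.36 was not called (adjusted p = 0.165). It was 0.18 ± 0.15 without AXL WT library 1 (adjusted p = 0.298) and −1.48 with libraries 2 and 3 left out, so the sign depended on which libraries were kept. In normoxia Ctsc was lower in AXL KO by −1.28 ± 0.37 (adjusted p = 0.00972). Cathepsin O (Ctso) had 38.3, 40.1 and 42 CPM in AXL KO normoxia, against 23.1, 27.2 and 22.8 CPM in AXL WT normoxia, a difference of 0.72 ± 0.21 (adjusted p = 0.0117). In hypoxia it was not called (0.16 ± 0.22, adjusted p = 0.523).

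Ctsk had 1.55, 0.582 and 0.77 CPM in AXL KO hypoxia and 1.21, 10.5 and 1.56 CPM in AXL WT hypoxia. The groups overlap and library 2 of AXL WT alone is far higher. The log2 fold change was −2.19 ± 0.76 (adjusted p = 0.0245), −2.62 ± 0.62 without AXL WT library 1 (adjusted p = 0.00201) and −0.34 without libraries 2 and 3. The call was made under 12 of 21 alternatives. It was lost without AXL WT library 2 alone and with only the libraries compared. Of 10 macrophage markers 5 were tested between genotypes in hypoxia: Cd68, also a lysosomal membrane protein, was higher in AXL KO (2.88 ± 0.19), Csf1r, Lyz2 and Cd14 were lower, and Fcer1g was not called. The macrophage colony-stimulating factor receptor Csf1r had 5.41, 145 and 41.1 CPM in AXL WT hypoxia and 0.0172 to 0.218 CPM in the other 9 libraries. The lipopolysaccharide co-receptor Cd14 had 56.7, 177 and 124 CPM in AXL WT hypoxia and 42 to 51.8 CPM in the other 9. The 10 macrophage markers summed to 94.1 to 97.8 CPM in AXL KO hypoxia, 103 to 129.8 CPM in AXL KO normoxia, 71.9 to 329 CPM in AXL WT hypoxia and 56.8 to 63 CPM in AXL WT normoxia. In AXL WT hypoxia Tyrobp was at 0 and Ptprc, Adgre1, Itgam, Lyz2, Fcer1g and Aif1 were each at most 0.469 CPM. The 6 osteoclast markers summed to 124 to 129 CPM in AXL KO hypoxia, 106 to 119 CPM in AXL KO normoxia, 37.6 to 76.7 CPM in AXL WT hypoxia and 55.6 to 59.8 CPM in AXL WT normoxia. Of these, Acp5 and Nfatc1 were tested, and both were higher in AXL KO in hypoxia, by 1.08 ± 0.21 and 1.42 ± 0.21. Calcr was at 0 in the 6 AXL KO libraries and at most 0.0883 CPM in those of AXL WT hypoxia. The part of these markers in the Ctsk values was not tested.

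All 5 glycosidases were higher in AXL KO in hypoxia, against 29.9% of all genes. Hexa, the alpha subunit of beta-hexosaminidase, had 116, 138 and 131 CPM in AXL KO hypoxia, against 42.6, 46.2 and 45 CPM in AXL WT hypoxia. In normoxia Hexa had 150.3, 179 and 186 CPM in AXL KO, against 82.9, 91.2 and 84.9 CPM in AXL WT. It was higher in AXL KO at both, by 1.52 ± 0.11 in hypoxia (adjusted p = 2.49e-07) and 0.99 ± 0.1 in normoxia (adjusted p = 6.01e-06). Gaa, the acid alpha-glucosidase that degrades glycogen, and Glb1, the acid beta-galactosidase, were higher in hypoxia by 1.26 ± 0.08 and 1.22 ± 0.1 and in normoxia by 0.83 ± 0.08 and 1.23 ± 0.1. Glb1 shares its strand and part of its locus with Tmppe, which was lower in AXL KO by −1.29 ± 0.14 in hypoxia and was looked at after its values were seen.

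Gla and Neu1 were called in hypoxia and not in normoxia. Gla, the alpha-galactosidase lacking in Fabry disease, had 23.2, 27.5 and 26.3 CPM in AXL KO hypoxia, against 16.4, 20.1 and 16.5 CPM in AXL WT hypoxia, a difference of 0.54 ± 0.12 (adjusted p = 0.00259). In normoxia it had 26.7, 33.4 and 30.5 CPM in AXL KO and 36, 37 and 38.5 CPM in AXL WT (−0.3 ± 0.12, adjusted p = 0.0544). Neu1, the lysosomal sialidase, was higher in hypoxia by 0.57 ± 0.11 (adjusted p = 0.000653) and at 0.05 ± 0.11 in normoxia (adjusted p = 0.688).

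The 3 genes of lipid and sterol handling were higher in AXL KO at both oxygen levels, against 29.9% of all genes in hypoxia and 29.7% in normoxia. Npc2, which hands cholesterol to the membrane transporter Npc1, had 396, 394 and 398 CPM in AXL KO hypoxia, against 204, 167 and 137 CPM in AXL WT hypoxia. In normoxia it had 316, 341 and 373 CPM in AXL KO, against 133, 142 and 131 CPM in AXL WT. No libraries overlapped, and the differences were 1.23 ± 0.13 in hypoxia (adjusted p = 7.29e-06) and 1.35 ± 0.13 in normoxia (adjusted p = 2.79e-06). Psap was higher by 1.43 ± 0.11 in hypoxia and 1.3 ± 0.11 in normoxia, and Npc1 by 0.67 ± 0.14 and 0.9 ± 0.14.

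Of the 4 lysosomal membrane genes Lamp2, a structural glycoprotein with a role in chaperone-mediated autophagy, differed most. It had 834, 819 and 871 CPM in AXL KO hypoxia, against 348, 260.9 and 236 CPM in AXL WT hypoxia, a difference of 1.58 ± 0.13 (adjusted p = 1.07e-06). In normoxia it was higher in AXL KO by 1.13 ± 0.13 (adjusted p = 1.24e-05). Scarb2, the receptor that carries glucocerebrosidase to lysosomes, was higher by 1.29 ± 0.18 and 0.85 ± 0.18. Lamp1, of much the same structure as Lamp2, had 1311 ± 33 CPM in AXL KO hypoxia and 1141 ± 107 CPM in AXL WT hypoxia and was not called (0.2 ± 0.1, adjusted p = 0.0933). In normoxia Lamp1 was at −0.09 ± 0.1 with TMM (adjusted p = 0.429) and was called lower with library size alone (−0.35 ± 0.08, adjusted p = 0.00331). The calcium channel gene Mcoln1 differed by 0.22 ± 0.08 in hypoxia (adjusted p = 0.0346) and −0.14 ± 0.08 in normoxia (adjusted p = 0.17), and its hypoxia call was not made under 12 of 22 alternatives.

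Tfeb, a master regulator of lysosomal genes, had 43.8, 46.9 and 47.8 CPM in AXL KO hypoxia, against 43.1, 17.6 and 20.1 CPM in AXL WT hypoxia. Library 1 of AXL WT hypoxia thus lay just under the AXL KO libraries and the other two well below. The difference was 0.78 ± 0.26 (adjusted p = 0.0209), 1.3 ± 0.11 without library 1 (adjusted p = 1.66e-07) and 0.09 with libraries 2 and 3 left out. In normoxia Tfeb had 36.6, 39.4 and 40.3 CPM in AXL KO, against 14.5, 16.5 and 15.4 CPM in AXL WT, a difference of 1.32 ± 0.26 (adjusted p = 0.00098). Its paralogue Tfe3 had 136, 123 and 124 CPM in AXL KO hypoxia and 120.3, 216 and 130.1 CPM in AXL WT hypoxia, which overlap (−0.29 ± 0.18, adjusted p = 0.186). In normoxia Tfe3 had 113, 107 and 97.1 CPM in AXL KO, against 66.3, 66.1 and 73.7 CPM in AXL WT, a difference of 0.62 ± 0.18 (adjusted p = 0.0109). Grn, a precursor of lysosomal granulins, was higher in AXL KO by 0.77 ± 0.09 in hypoxia and 0.3 ± 0.09 in normoxia. Sqstm1 was higher in hypoxia by 0.3 ± 0.11 (adjusted p = 0.0365), a call that was not made under 15 of 22 alternatives.

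The V-ATPase subunits did not share a direction. In hypoxia 1 of 7 was higher in AXL KO and 3 lower. In normoxia 4 were higher, Atp6v0d2 with its few counts among them, and 1 lower. Over all genes 29.9% were higher and 33% lower in hypoxia, and 29.7% and 30% in normoxia. Atp6v1a, the catalytic A subunit of V1, had 470.7 ± 14.6 CPM in AXL KO hypoxia and 209 ± 14.6 CPM in AXL WT hypoxia, and was higher by 1.17 ± 0.08 (adjusted p = 2.71e-07). In normoxia it had 408 ± 17.9 CPM in AXL KO and 168 ± 6.81 CPM in AXL WT, a difference of 1.28 ± 0.08 (adjusted p = 1.02e-07). Its partner in the V1 head, Atp6v1b2, was at 0.21 ± 0.12 in hypoxia and −0.15 ± 0.12 in normoxia and was called in neither. Atp6v1c1, the C subunit that links V1 to V0, was lower in AXL KO by −0.35 ± 0.1 in hypoxia and −0.98 ± 0.1 in normoxia, and the hypoxia value was −0.44 ± 0.08 without AXL WT library 1 and −0.13 with libraries 2 and 3 left out.

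Atp6v1h, the regulatory H subunit, is given by library because single libraries set its value. It had 54.9, 57.8 and 58.4 CPM in AXL KO hypoxia, against 82.3, 186 and 137 CPM in AXL WT hypoxia. The difference was −1.24 ± 0.22 (adjusted p = 0.000362), −1.49 ± 0.11 without library 1 (adjusted p = 8.8e-08) and −0.53 without libraries 2 and 3. In normoxia Atp6v1h was at −0.09 ± 0.21 (adjusted p = 0.725).

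Of the V0 sector, Atp6v0a1, an isoform of the proton-channel subunit, had 39.4, 44.5 and 41.4 CPM in AXL KO hypoxia, against 47, 57 and 63.5 CPM in AXL WT hypoxia. In normoxia it had 97.9, 103 and 102 CPM in AXL KO, against 78.3, 80 and 86.9 CPM in AXL WT. It was lower in AXL KO in hypoxia (−0.42 ± 0.11, adjusted p = 0.00613) and higher in normoxia (0.31 ± 0.11, adjusted p = 0.031). The hypoxia value was −0.52 ± 0.09 without AXL WT library 1 and −0.18 without libraries 2 and 3. The normoxia call was made under 15 of 22 alternatives, and not with library size alone or without replicate 1 or 2 of AXL WT normoxia. Atp6v0d1, the widely expressed d subunit, was higher in normoxia by 0.35 ± 0.12 (adjusted p = 0.0212) and at 0.24 ± 0.12 in hypoxia (adjusted p = 0.0958). Its normoxia call was made under 18 of 22 alternatives. Atp6v0d2 had 0.214, 0.241 and 0.312 CPM in AXL KO normoxia, against 0.0176, 0.0186 and 0.0698 CPM in AXL WT normoxia. The summed counts were 44 against 6. Single libraries held 12, 14 and 18 counts in AXL KO normoxia and at most 4 elsewhere. Atp6v0d2 thus passed the low-count filter only through the group where it is high. Its calls are included in the counts of members, but its tests are not read as support. In hypoxia it had 0 counts in both genotypes, which allows up to 0.0228 CPM in AXL KO and 0.022 CPM in AXL WT.

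**Figure D3:**
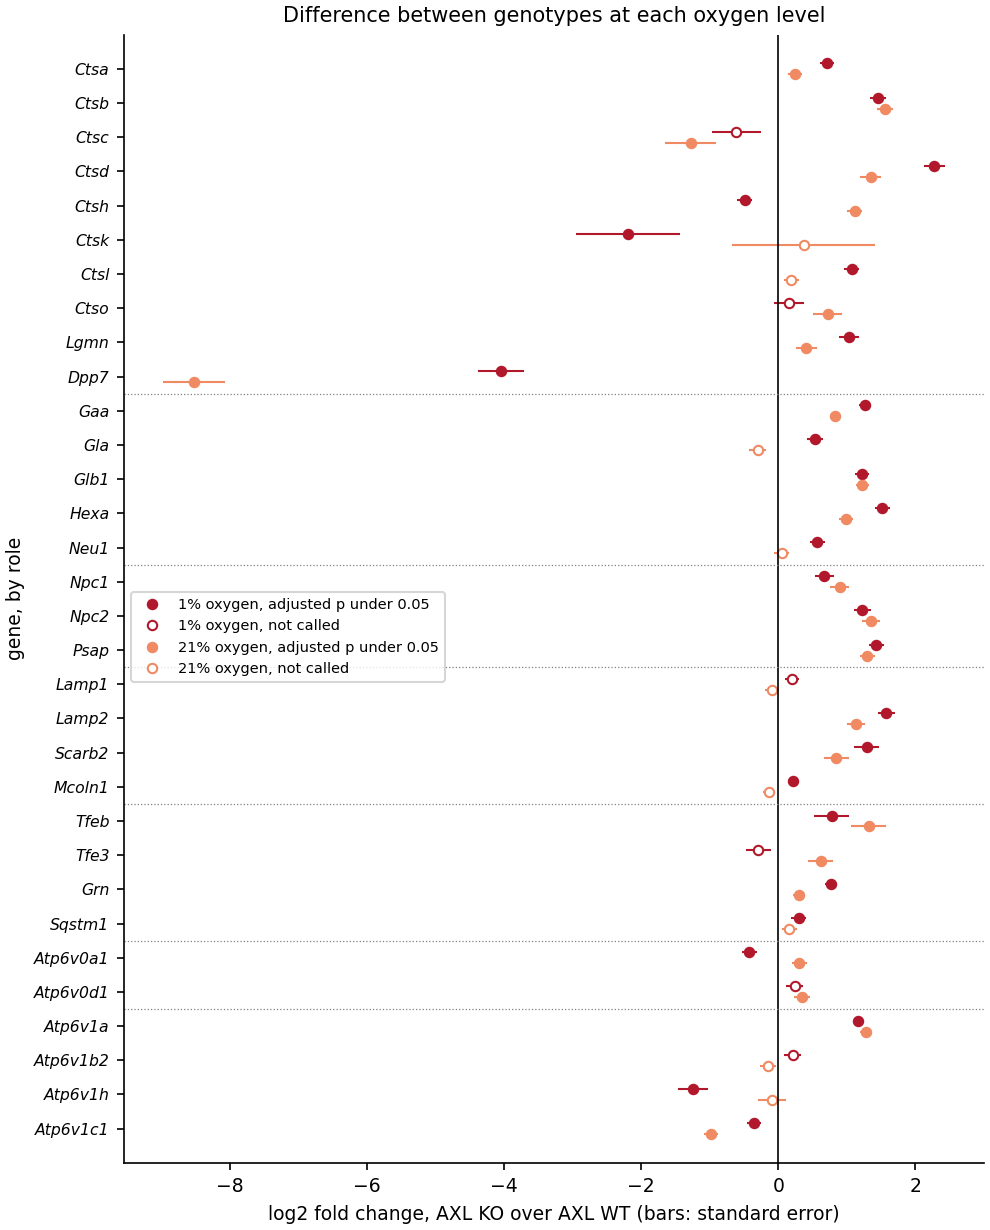
Difference between AXL KO and AXL WT for 32 tested genes in 1% and 21% oxygen. Points are log2 fold changes, bars their standard errors, filled points are called at an adjusted p under 0.05, and dotted lines separate the roles. Ctsz and Atp6v0d2 are left out because a group had 0 to 2 counts. Most glycosidase, lipid and membrane genes lie right of 0 at both oxygen levels, Ctsh and Atp6v0a1 lie on opposite sides, and Dpp7 lies at −4.05 and −8.53.

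In AXL KO cells 16 of the 34 genes rose in hypoxia, 8 fell and 10 were not called. Over all genes 58% were called, 27.3% higher and 30.6% lower. The members' median was 0.23, against −0.026 for all genes. With library size alone the median of all genes was −0.23 and 10 members were higher and 11 lower, so the balance of directions depends on the scaling. Among the peptidases 8 of 11 rose in hypoxia with TMM. Ctsd, with the libraries given above, rose by 1.25 ± 0.15 (adjusted p = 2.67e-05), and by 1.04 ± 0.13 with library size alone. Lgmn had 200.7, 189 and 196 CPM in AXL KO hypoxia, against 76.7, 71.6 and 79.5 CPM in AXL KO normoxia, a rise of 1.36 ± 0.15 (adjusted p = 1.81e-05). Neu1 rose by 1.26 ± 0.11 (adjusted p = 2.89e-06), Ctsl by 0.83 ± 0.11 (adjusted p = 7.21e-05) and Ctsz by 0.72 ± 0.15 (adjusted p = 0.0026). Dpp7 rose by 3.38 ± 0.48 from a level near 0 (adjusted p = 0.000114), and Ctsk by 2.55 ± 0.88 (adjusted p = 0.0267).

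Genes that fell in AXL KO hypoxia included a cathepsin, a hydrolase and V-ATPase subunits. Ctso had 12.2, 14.9 and 14.8 CPM in AXL KO hypoxia, against 38.3, 40.1 and 42 CPM in AXL KO normoxia, and fell by 1.52 on the log2 scale (SE 0.22, adjusted p = 0.000113). Atp6v0a1 fell without overlap, with a log2 fold change of −1.28 ± 0.11 (adjusted p = 3.37e-06). Atp6v0d2 had 0 counts in hypoxia and 44 in normoxia, so it was at least 11.2-fold lower in hypoxia, with a floor of 3 counts over the group. Hexa, Scarb2, Sqstm1, Atp6v1c1 and Atp6v1h had log2 fold changes of −0.35 to −0.56.

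In AXL WT cells 11 of the 34 genes rose in hypoxia, 12 fell and 11 were not called. Over all genes 59.8% were called, 29.2% higher and 30.7% lower, and the medians were 0.03 for the members and −0.023 for all genes. The member counts therefore lay close to the background. With library size alone the median of all genes was −0.319 and 6 members were higher and 16 lower. Without AXL WT hypoxia library 1, 10 were higher and 12 lower, and with libraries 2 and 3 left out 14 were higher and 11 lower. Ctsh rose most among the members of more than 10 CPM, with a log2 fold change of 1.97 ± 0.11 (adjusted p = 1.1e-07). Tfe3 rose by 1.18 ± 0.18 (adjusted p = 0.000188), Tfeb by 0.8 ± 0.26 (adjusted p = 0.0201) and Ctsk by 5.1 ± 0.92 (adjusted p = 0.000538). Without library 1 the values of Ctsh, Tfe3, Tfeb and Ctsk were 2.08 ± 0.09, 1.33 ± 0.16, 0.28 ± 0.1 and 5.55 ± 0.77, and without libraries 2 and 3 they were 1.75, 0.82, 1.49 and 3.26. Gla fell, at −1.07 ± 0.13 (adjusted p = 2.13e-05), as did Atp6v1c1 at −0.99 ± 0.1, Hexa at −0.95 ± 0.1, Scarb2 at −0.99 ± 0.18 and Dpp7 at −1.1 ± 0.29. Atp6v1h was called higher (0.59 ± 0.21, adjusted p = 0.0311) although its libraries overlapped, and it was at 0.85 ± 0.11 without library 1 and at −0.11 without libraries 2 and 3. Ctsd was at 0.33 ± 0.14 and not called (adjusted p = 0.0688), at 0.14 ± 0.11 without library 1 (adjusted p = 0.276) and at 0.65 without libraries 2 and 3. Psap (0.23 ± 0.1, adjusted p = 0.0807) and Lamp2 (0.06 ± 0.13, adjusted p = 0.706) were not called either. They were at 0.11 ± 0.09 and −0.12 ± 0.09 without library 1, and at 0.44 and 0.38 without libraries 2 and 3.

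**Figure D4:**
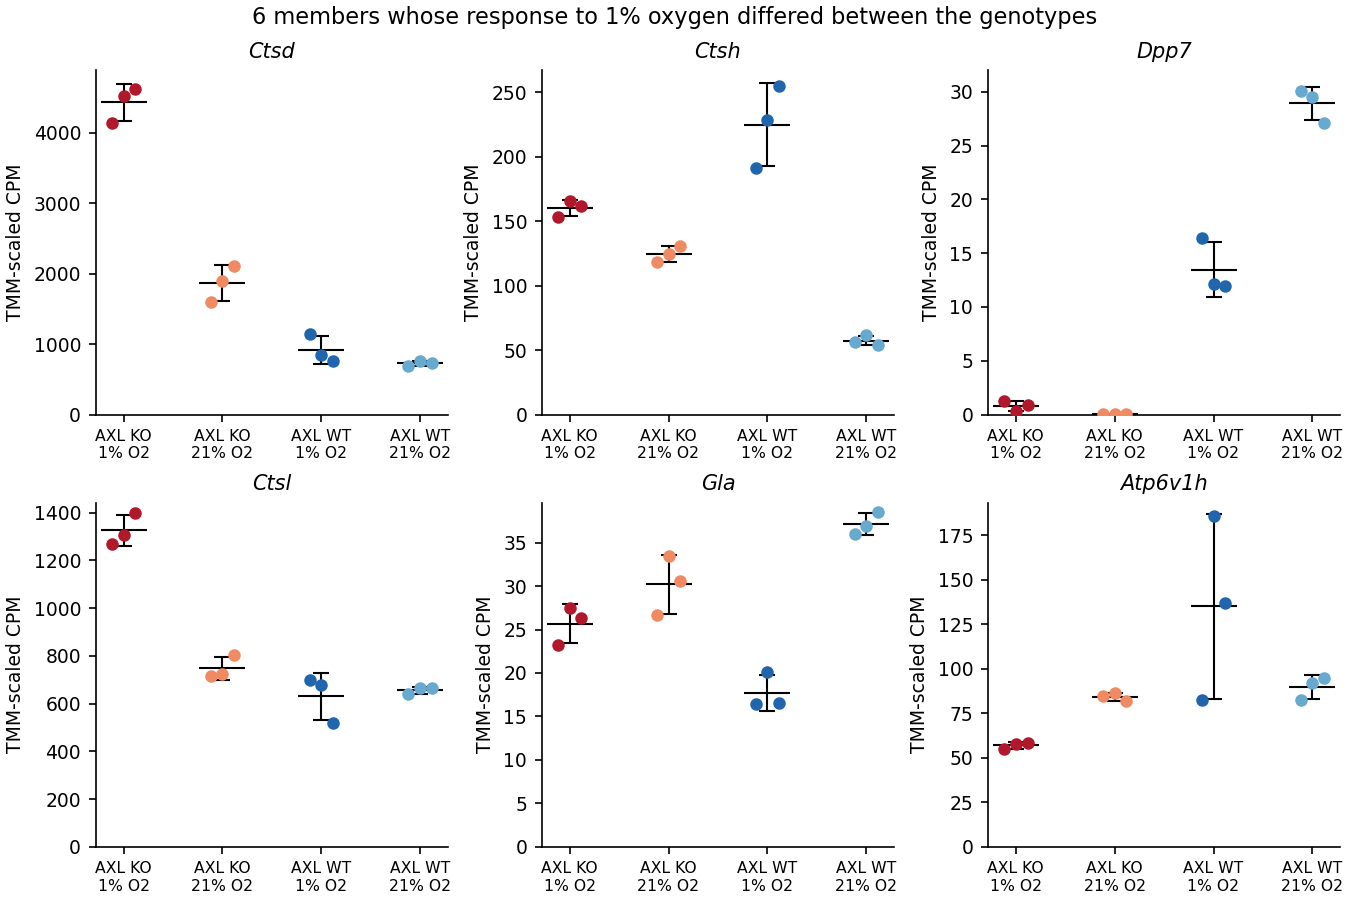
Level of 6 members in each library, in TMM-scaled CPM on linear axes that start at 0. Points are libraries and bars the mean and standard deviation of 3. Ctsd and Ctsl are highest in AXL KO hypoxia, Ctsh in AXL WT hypoxia and Dpp7 in AXL WT normoxia, and the 3 libraries of AXL WT hypoxia spread widely for Atp6v1h.

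The responses to hypoxia differed between the genotypes for 16 of the 34 genes. The response was higher in AXL KO than in AXL WT for 12 (Ctsa, Ctsd, Ctsl, Lgmn, Dpp7, Gaa, Gla, Hexa, Neu1, Mcoln1, Grn and Atp6v1c1) and lower for 4 (Ctsh, Tfe3, Atp6v0a1 and Atp6v1h). Over all genes 28.8% were called, 13.5% higher and 15.3% lower, and the medians were 0.21 for the members and −0.025 for all genes. The count of 16 fell to 9 without replicate 1 or replicate 2 of AXL WT normoxia, to 10 without replicate 3 of that group or replicate 2 of AXL KO hypoxia, and came to 20 without AXL WT hypoxia library 1 (16 higher, 4 lower) and to 20 without its libraries 2 and 3 (12 higher, 8 lower). With library size alone 15 were higher and 4 lower. Ctsd, Ctsh, Ctsl, Dpp7, Gla, Atp6v0a1, Atp6v1h and Atp6v1c1 were called under every alternative run. Lgmn was called under only 7 and Mcoln1 under only 8 of 21 alternatives, and the others of the 16 under 15 to 18.

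Glycosidases carried 4 of the 12 higher responses, and 0 of the 3 lipid and sterol genes was called. Of these 4, Gaa, Hexa and Neu1 were not called when any 1 of the AXL WT normoxia replicates was left out, so that 1, Gla, was then called. The difference of responses was 0.92 ± 0.21 for Ctsd (adjusted p = 0.00655), 0.88 ± 0.16 for Ctsl (adjusted p = 0.00176) and 0.84 ± 0.18 for Gla (adjusted p = 0.00465). Ctsl rose in AXL KO and was at −0.06 ± 0.11 in AXL WT, while Gla was at −0.23 ± 0.12 in AXL KO and fell in AXL WT. Dpp7 had the largest difference of the called members (4.48 ± 0.56, adjusted p = 0.000189), since it rose in AXL KO and fell in AXL WT. Ctsh had the smallest adjusted p of the members (−1.61 ± 0.15, adjusted p = 2.95e-05): it rose in both genotypes, by 0.36 ± 0.11 in AXL KO and 1.97 ± 0.11 in AXL WT. Atp6v0a1 fell in both and further in AXL KO, and the responses differed by −0.73 ± 0.16 (adjusted p = 0.00565). For Lgmn the difference was 0.62 ± 0.21 (adjusted p = 0.0472), 0.85 ± 0.12 without AXL WT hypoxia library 1 and 0.23 without its libraries 2 and 3. For Tfeb it was −0.55 ± 0.37 (adjusted p = 0.292), −0.02 ± 0.14 without library 1 (adjusted p = 0.922) and −1.23 without libraries 2 and 3. For Atp6v1h it was −1.15 ± 0.3, −1.4 ± 0.15 without library 1 and −0.45 without libraries 2 and 3.

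**Figure D5:**
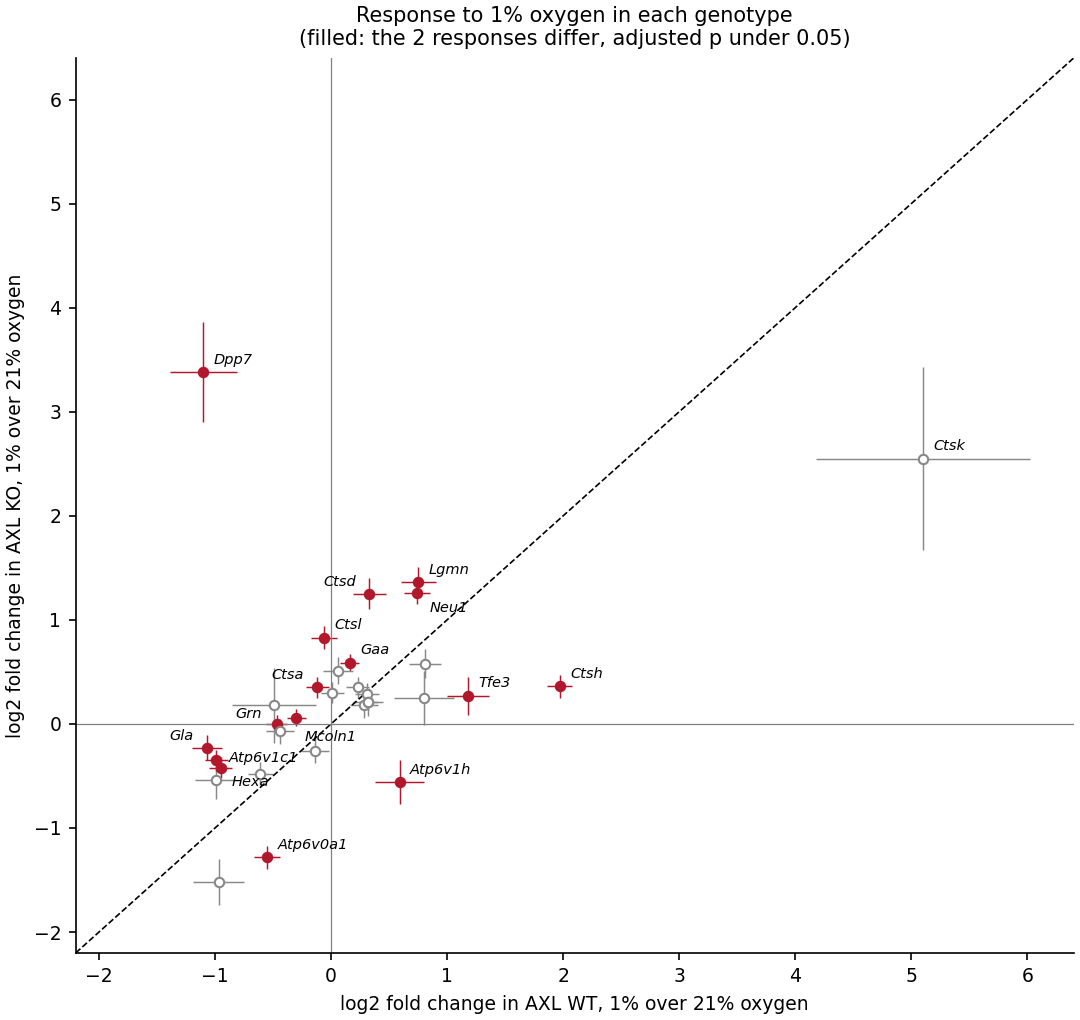
Response to 1% oxygen of 32 tested genes in AXL KO (vertical) and AXL WT (horizontal), as log2 fold changes over 21% oxygen with standard errors. Filled and named points had responses that differed between the genotypes at an adjusted p under 0.05, and Ctsk is named as well. The dashed line marks equal responses: Dpp7, Ctsd and Ctsl lie above it, and Ctsh, Tfe3, Atp6v1h and Atp6v0a1 below it.

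Other genes of the same organelle, from lists chosen together with the members, gave these counts, to be read against the 29.9% higher and 33% lower of all genes in hypoxia and the 29.7% and 30% in normoxia. Of 31 other hydrolases tested, 25 (80.6%) were higher in AXL KO in hypoxia and 3 (9.7%) lower (median 0.95), and in normoxia 20 (64.5%) were higher and 4 (12.9%) lower (median 0.74). Of 15 other lysosomal membrane genes 10 (66.7%) were higher in hypoxia and 3 (20%) lower, among them the higher Laptm4a (1.16 ± 0.09) and the channel Tpcn1 (2.35 ± 0.19). In normoxia 7 (46.7%) of the 15 were higher and 2 (13.3%) lower. Of 16 other V-ATPase subunits 5 (31.2%) were higher and 5 (31.2%) lower in hypoxia, close to the share over all genes, and 7 (43.8%) were higher and 5 (31.2%) lower in normoxia. The a4 subunit Atp6v0a4, an isoform of kidney and inner ear, was lower in AXL KO by −5.08 ± 0.41 in hypoxia, and Atp6v1c2 by −2.56 ± 0.24. Of 6 genes that sort hydrolases by mannose 6-phosphate or sortilin, 3 (50%) were higher in AXL KO in hypoxia and 0 lower, among them Sort1 (1.66 ± 0.23) and the phosphotransferase subunit Gnptab (0.73 ± 0.1). In normoxia 4 (66.7%) of the 6 were higher and 0 lower.

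Inhibitors of cathepsins were called between genotypes mainly in hypoxia. Cystatin C (Cst3), a secreted inhibitor of cysteine cathepsins, had 2809.9, 2844 and 3051 CPM in AXL KO hypoxia, against 854, 540.2 and 469 CPM in AXL WT hypoxia, a difference of 2.22 ± 0.2 (adjusted p = 2.5e-06). Of 5 tested cystatins and related serpins 4 (80%) were higher in AXL KO in hypoxia and 1 (20%) lower, Stfa3 at −6.11. In normoxia 1 (20%) was higher and 0 lower, against 29.7% and 30% of all genes. Of 11 other cathepsins, several of them placental, 1 was tested: Ctsw was lower in AXL KO in hypoxia (−2.67 ± 0.49) at under 1 CPM in all libraries.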

How the data were processed

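RNA was extracted on RNeasy columns and sequenced on Illumina instruments, per the labels' protocols. The authors deposited whole-number counts per gene, unnormalized, with gene length in bases, made with featureCounts 1.6.0 against Ensembl release 93 with strand setting 2, per the file headers. The submitters' processing notes name FastQC 0.11.5, STAR 2.5.1b, featureCounts 1.4.6, DESeq2 1.12.3 and GRCm38, so the featureCounts version differs between the sources. Groups come from the titles: in 6 samples the genotype tag contradicts the title.

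Genes with low counts were removed with filterByExpr (37465 removed, 16767 tested), libraries were scaled with TMM factors, and edgeR 4.0.16 in R 4.3.3 fitted 1 mean per group to all 12 libraries with the robust quasi-likelihood test (8 residual degrees of freedom, biological coefficient of variation 0.201). Adjusted p-values are Benjamini-Hochberg over all genes tested, with a threshold of 0.05. CPM are TMM-scaled, and standard errors were derived from the fold change and its F statistic. Scripts were tested on simulated data. Intervals and floors of 3 counts cover counting error only. As alternatives, scaling used RLE factors or library size alone, the filter was dropped or tightened to 5 CPM in at least 3 libraries, and the test was replaced by DESeq2 1.42.0 or by voom in limma 3.58.1. Further alternatives were a replicate block, only the libraries compared, and libraries left out.

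The members, the other gene lists and the tests were chosen with earlier results of these data known. By the rule for named genes, values in every library are given for the 6 called members of largest absolute log2 fold change per comparison, the 6 of smallest adjusted p for the difference of responses, Axl, and up to 2 genes per other list and comparison. Ctsc, Tfeb and Atp6v1h by library, single markers and overlapping neighbours were chosen after their values were seen. Protein sequences were not used here, so the planned identity between members was not run.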

Additional observations from a re-analysis of the deposited data

Results flagged for a closer look

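The responses to hypoxia of 16 members differed between AXL KO and AXL WT by the test of that difference (edgeR, adjusted p under 0.05). The difference, AXL KO minus AXL WT on the log2 scale, was 4.48 for Dpp7, 0.92 for Ctsd, 0.88 for Ctsl, 0.84 for Gla, 0.63 for Atp6v1c1 and 0.62 for Lgmn. It was 0.53 for Hexa, 0.52 for Neu1, 0.46 for Ctsa, 0.46 for Grn, 0.43 for Gaa and 0.36 for Mcoln1. It was −1.61 for Ctsh, −1.15 for Atp6v1h, −0.91 for Tfe3 and −0.73 for Atp6v0a1. The calls of Lgmn and Mcoln1 were made under only 7 and 8 of 21 alternatives, and those of Ctsa and Neu1 under 15.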

How the results depend on the processing

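Counts of members called stayed within 1.5 times of the main count under every alternative run, except for the difference of responses, where 16 became 9, 9 and 10 without AXL WT normoxia replicates 1, 2 and 3 and 10 without AXL KO hypoxia replicate 2. Leaving out 1 library at a time gave 23 to 28 members in hypoxia and 21 to 26 in normoxia for the genotypes, 17 to 27 and 19 to 24 for oxygen in AXL KO and AXL WT, and 9 to 20 for the difference. The members' shares of counts then spanned 1.55% to 1.59% (AXL KO hypoxia), 1.31% to 1.38% (AXL KO normoxia), 0.776% to 0.807% (AXL WT hypoxia) and 0.955% to 0.973% (AXL WT normoxia). Of 3525 values of single members under alternatives, 3208 kept direction and side of the threshold, 217 lost the call, 96 gained one and 4 reversed. With library size alone, Ctsa in normoxia between genotypes came to −0.01 and Lamp1 in AXL WT hypoxia to −0.29. With AXL WT hypoxia libraries 2 and 3 left out, Ctsc and Atp6v1h in AXL WT hypoxia came to 0.39 and −0.11, values with no test because 1 library stands for that group. The cause was not tested.

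No pairing by replicate number was seen. Deviations from the group mean in same-numbered libraries correlated at −0.065 to 0.142 over 18 pairs, with 2 over 0.1. Low correlations cannot exclude a pairing, and the labels do not give the source of the replicates. The fit with a replicate block called 25 and 25 members between genotypes in hypoxia and normoxia, 24 and 21 for oxygen in AXL KO and AXL WT, and 14 for the difference. Counts of a few reads (Ctsf, Ctss, Atp6v0d2 in hypoxia) limit what can be said of those genes.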

Other observations

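Of 16 autophagy genes, from a list chosen together with the members, 8 (50%) rose and 3 (18.8%) fell in hypoxia in AXL KO, where 27.3% of all genes rose and 30.6% fell. In AXL WT 10 (62.5%) rose and 1 (6.2%) fell, against 29.2% and 30.7% of all genes. Uvrag, which acts in autophagosome maturation, rose by 1.98 ± 0.18 in AXL KO and 1.69 ± 0.18 in AXL WT. Between genotypes 7 (43.8%) were higher in AXL KO in hypoxia and 4 (25%) lower, against 29.9% and 33% of all genes. In normoxia 8 (50%) were higher and 2 (12.5%) lower, against 29.7% and 30% of all genes. The lipid scramblase Atg9b was lower in AXL KO by −4.73 ± 0.23 in hypoxia and −5.78 ± 0.23 in normoxia. Of 15 tested genes of TFEB control and mTORC1 on the lysosome, 6 (40%) were higher in AXL KO in hypoxia and 4 (26.7%) lower, with a median of 0.23, against −0.041 for all genes. In normoxia 5 (33.3%) of the 15 were higher and 1 (6.7%) lower, with a median of 0.09, against −0.03 for all genes.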
